A study of Mus musculus with 60 samples.

Results

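Bdnf, Ntf3, Ntrk2, Ntrk3, Ngfr and Sort1 encode a pair of neurotrophins and the membrane proteins that bind them. They are 6 of the 24508 gene rows of an RNA-seq table of mouse hippocampus and were chosen by name. The table holds 9 wild-type (WT) and 9 R6/1 libraries, each from mice aged 30 weeks and of the same mixed background, with shares of 50% CBA and 50% C57BL/6. R6/1 mice model Huntington's disease: their transgene is a fragment of human HTT, exon 1 with a long CAG tract, and the WT mice do not carry it. No other allele or agent is named in the labels, and each library is an independent biological replicate of frozen hippocampus, per the labels' protocols. Lamin B1 ChIP-seq, which marks chromatin at the nuclear lamina, was made from 3 replicates per genotype, each pooled from 5 mice, and was deposited as 1 domain list per genotype.

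Neurotrophins are secreted growth factors of neurons, made as longer proforms that convertases cut to the mature factor. Brain-derived neurotrophic factor (BDNF, from Bdnf) binds the receptor tyrosine kinase TrkB (Ntrk2), and neurotrophin-3 (Ntf3) binds TrkC (Ntrk3). Every mature neurotrophin also binds the p75 receptor (Ngfr), while the uncut proforms bind p75 together with sortilin (Sort1), a sorting receptor that also steers proBDNF into secretory vesicles. In the hippocampus BDNF is made by excitatory neurons, its gene responds to neuronal activity, and TrkB signalling supports synaptic plasticity.

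Values are RPKM, reads per kilobase of gene scaled for depth, which sets levels of different genes side by side. The annotation behind the gene lengths is not given in the sources used here, and a row pools the transcripts of its gene. Levels are thus compared between genes only approximately. The reads on genes numbered between 12299434 and 16457022 per WT library and between 13260311 and 16736544 per R6/1 library. Genotypes were compared with limma on log2(RPKM + 0.5) in the 14446 genes whose mean reached 0.5 RPKM, with Benjamini-Hochberg adjustment over these genes and a threshold of 0.05. The log2 difference is R6/1 minus WT on that scale, which understates the change of low genes. All 6 genes passed the filter. R6/1 libraries were lower for 4 of them (Bdnf, Ntf3, Ntrk3 and Sort1), higher for 0, and 2 (Ntrk2 and Ngfr) did not pass the threshold. Among all tested genes, 23.5% were lower in R6/1 and 24.8% were higher (3394 and 3586 genes, or 2525 and 5113 when each library was set to its own read total). The median log2 difference was -0.44 over the 6 genes and 0.0036 over the genes tested. In bulk tissue, fewer cells of a type and less RNA per cell cannot be told apart.

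The libraries carried the hippocampal markers their labels call for, at levels that differed between genotypes. The summed level of 7 dentate granule neuron markers lay between 100.5 and 147 RPKM in WT and between 54.7 and 66.1 RPKM in R6/1, and the same sum over 6 CA3 pyramidal markers between 99.2 and 183 RPKM in WT and between 59.3 and 74.7 RPKM in R6/1. All 7 and all 6 of these markers were lower in R6/1, as were 5 of 5 CA1 markers, 3 of 4 tested CA2 markers and 6 of 8 inhibitory neuron markers. Glial markers were also lower, 6 of 9 for astrocytes, 6 of 8 for oligodendrocytes and 4 of 7 for microglia, with 1 astrocyte marker higher. Smaller shares were lower for endothelial cells and pericytes (3 of 9), oligodendrocyte precursors (1 of 3) and meningeal fibroblasts (1 of 8, with 1 higher). These counts stand beside 23.5% lower and 24.8% higher among all tested genes. Set to own read totals, 1 marker each of CA3, oligodendrocytes, microglia and the endothelial and pericyte list lost its call. The part of these markers in the results on the 6 genes was not tested. Tissue from outside the hippocampus varied between libraries: 7 choroid plexus markers summed to between 26.1 and 1077 RPKM in WT and between 39.5 and 1743 RPKM in R6/1, with 0 of 7 past the threshold. The 3 cholinergic neuron markers summed to 1.57 RPKM in WT replicate 2 and 1.99 RPKM in WT replicate 5, and to between 0.104 and 0.318 RPKM in the 16 other libraries.

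The ligand genes were lower in R6/1. Bdnf (chr2:109514857-109567204, plus strand, build NCBIM37, 8 merged exons) had a lowest, median and highest level of 5.04, 6.60 and 7.74 RPKM in WT, and of 2.47, 3.23 and 3.87 RPKM in R6/1. The highest R6/1 library lay below the lowest WT library, a separation that 2 of the 6 genes (Bdnf and Sort1) showed and 6.38% of the tested genes showed in this direction. The mean fell from 6.37 ± 0.95 RPKM to 3.21 ± 0.39 RPKM (SD, n = 9 each), to 50.4% of WT, with a log2 difference of -0.88 (SE 0.082, adjusted p by limma = 3.50e-08). The authors' deposited table gives Bdnf a log2 fold change of -0.95 with an adjusted p of 3.58e-26, in a comparison that has 20.4% of its genes lower. Of the tested genes, 1.37% had a lower log2 difference than Bdnf. Bdnf rested on 475 to 836 reads per WT library and 257 to 392 per R6/1 library. The value pools transcripts from every start of the gene, since the table has 1 row per gene.

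Ntf3 (chr6:126051431-126116762, minus strand, NCBIM37) had a lowest, median and highest level of 3.01, 3.98 and 6.34 RPKM in WT and of 2.06, 2.27 and 3.24 RPKM in R6/1. R6/1 replicate 7, at 3.24 RPKM, lay inside the WT range, and the 8 other R6/1 libraries lay below every WT library. The mean fell from 4.09 ± 1.0 RPKM to 2.41 ± 0.35 RPKM (SD, n = 9 each), to 59.0% of WT, with a log2 difference of -0.63 (SE 0.11, adjusted p by limma = 6.06e-05). Ntf3 is a low-count gene, with 58 to 158 reads per WT library and 48 to 69 per R6/1 library. WT replicate 4 was the highest library in RPKM and in reads. With any 1 library left out, Ntf3 stayed lower, between -0.68 and -0.56 on the log2 scale.

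**Figure D1:**
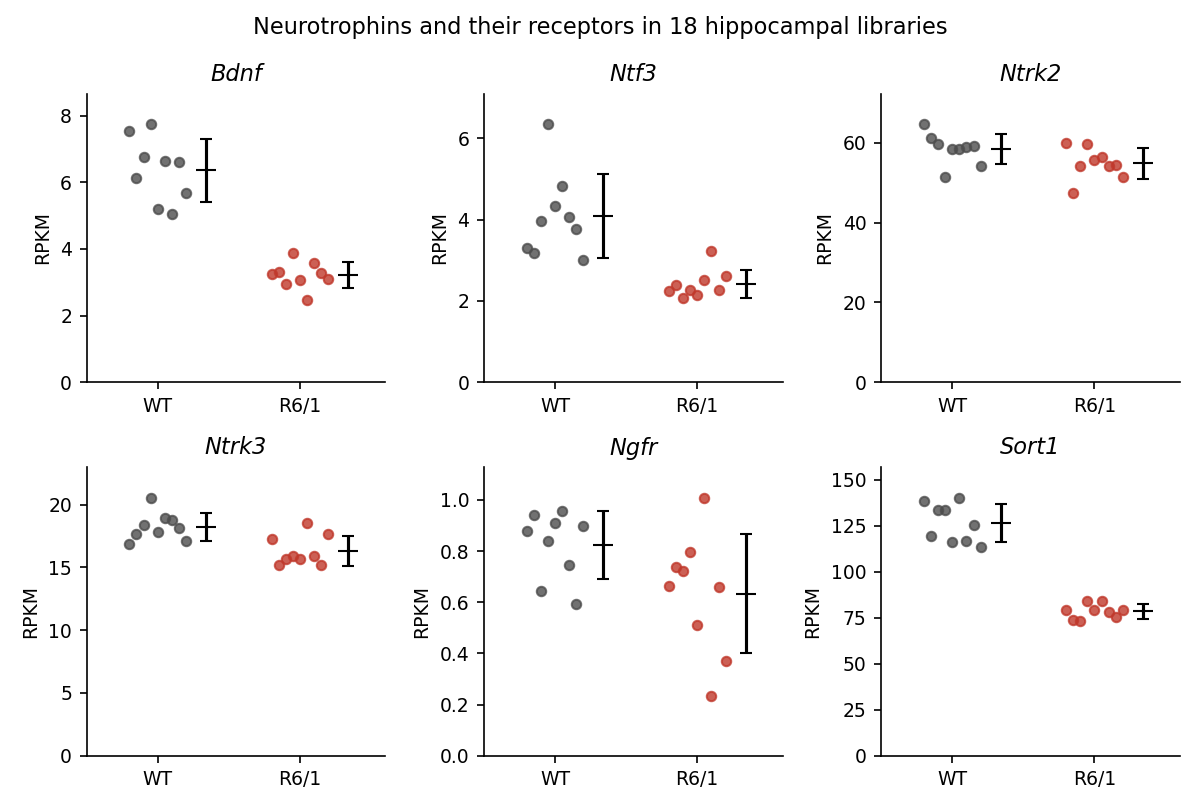
RPKM of each of the 6 genes in every library, with 9 WT libraries in grey and 9 R6/1 libraries in red; the bar beside each group is the mean with 1 SD, and each y axis starts at 0. Bdnf and Sort1 show no overlap between genotypes, Ntf3 overlaps through R6/1 replicate 7 (3.24 RPKM), and Ntrk2, Ntrk3 and Ngfr overlap over much of their range.

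Start regions are shown for both ligand genes because both genes were lower and Bdnf is known for activity-responsive elements at its starts. Whether these sequences bear on the difference between genotypes was not tested. RefSeq promoter sequences (build GRCm38.p6, not the build of the RNA-seq files; 250 bases before to 50 after each start) matched 4 of the 6 genes, with 7 starts for Bdnf, 2 for Ntf3, 1 for Ntrk2 and 1 for Ngfr. Ntrk3 and Sort1 were not matched. Both strands were searched for the cAMP response element TGACGTCA, which binds CREB, its shorter core TGACG, the EGR site GCGTGGGCG, the E-box CACGTG and the GC box GGGCGG. The whole element contains the core, so these searches overlap. The core was found in 1 of the 7 Bdnf starts, the third, 35 bases before the start, as its reverse complement CGTCA (capitals). The E-box was found in 1 of the 2 Ntf3 starts, 231 bases before the start (capitals). Sequences run 5′ to 3′ on the strand of the gene.
Bdnf, the third start, chr2:109692186-109692485, plus strand: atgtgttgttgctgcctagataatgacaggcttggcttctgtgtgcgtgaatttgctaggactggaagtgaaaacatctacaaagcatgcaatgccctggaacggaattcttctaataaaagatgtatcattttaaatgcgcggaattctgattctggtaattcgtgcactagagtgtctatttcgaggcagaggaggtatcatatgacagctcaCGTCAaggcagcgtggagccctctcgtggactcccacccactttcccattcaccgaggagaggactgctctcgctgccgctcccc
Ntf3, the first start, chr6:126166695-126166994, minus strand: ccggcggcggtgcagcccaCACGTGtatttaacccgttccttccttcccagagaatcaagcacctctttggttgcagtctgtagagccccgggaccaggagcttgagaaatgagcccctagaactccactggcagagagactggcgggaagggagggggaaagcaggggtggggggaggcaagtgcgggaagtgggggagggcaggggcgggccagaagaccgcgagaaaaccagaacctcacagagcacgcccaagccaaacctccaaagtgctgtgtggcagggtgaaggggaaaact
The core occurred in 20.8% and the E-box in 7.15% of 32851 promoters of this length. Exact matches of the whole cAMP response element (1.79% of promoters) and the EGR site (0.612%) were in 0 of the 11 start regions. The core at the third Bdnf start lies in TCACGTCA, which differs from the whole element by 1 letter, and near matches were not searched. The GC box (35.7%) was in 2 Bdnf, 2 Ntf3, 1 Ntrk2 and 1 Ngfr starts. A match describes the letters of these windows and shows no binding. Which start was used in the libraries was not resolved.

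The Trk receptor genes, whose products carry the growth signal into the cell, had log2 differences of -0.092 (Ntrk2) and -0.16 (Ntrk3), beside -0.88 (Bdnf) and -0.63 (Ntf3) for the ligands; the gap between receptors and ligands was not tested. Ntrk2, the BDNF receptor gene (chr13:58907957-59235331, plus strand, NCBIM37), had a lowest, median and highest level of 51.5, 59.0 and 64.6 RPKM in WT and of 47.4, 54.6 and 60.1 RPKM in R6/1. Its groups overlapped, and 2 of the 9 R6/1 libraries lay below every WT library. The WT mean was 58.5 ± 3.8 RPKM and the R6/1 mean 54.9 ± 3.9 RPKM (SD, n = 9 each), and the log2 difference of -0.092 (SE 0.046) did not pass the threshold (adjusted p by limma = 0.106). The unadjusted 95% interval of that difference runs from -0.19 to 0.0042, so a fall of up to 0.19 on the log2 scale is within it. Without WT replicate 4, which had the lowest WT level, Ntrk2 passed the threshold (log2 difference -0.11, adjusted p by limma = 0.0393). The gene makes a full-length kinase and a truncated receptor without the kinase, the truncated form mainly in astrocytes, and the row pools both.

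Ntrk3, the neurotrophin-3 receptor gene (chr7:85337248-85723294, minus strand, NCBIM37), had a lowest, median and highest level of 16.8, 18.1 and 20.5 RPKM in WT and of 15.2, 15.9 and 18.6 RPKM in R6/1. Of the 9 R6/1 libraries, 6 lay below every WT library and 3 within the WT range. Ntrk3 fell from 18.2 ± 1.1 RPKM to 16.3 ± 1.2 RPKM (SD, n = 9 each), with a log2 difference of -0.16 (SE 0.044, adjusted p by limma = 0.00669). The call held with median centring (-0.15, adjusted p by limma = 0.00759) and quantile normalization (-0.15, adjusted p by limma = 0.00646) and was lost with another scaling. Set to own read totals, where the median over all genes is 0.069, 17.5% of genes are lower and 3 of the 6 genes are, Ntrk3 stood at -0.084 on the log2 scale (adjusted p by limma = 0.122). The call was also lost without the 8 libraries that had over 500 RPKM of choroid plexus markers (log2 difference -0.11, adjusted p by limma = 0.169), a fit of 5 against 5 libraries added after the data were seen, while the calls of Bdnf, Ntf3 and Sort1 held there.

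Ngfr, the p75 receptor gene (chr11:95430132-95449049, minus strand, NCBIM37), was near the bottom of the tested genes, with 4.88% of them at or below its mean level. Its lowest, median and highest levels were 0.593, 0.879 and 0.957 RPKM in WT and 0.235, 0.662 and 1.01 RPKM in R6/1. The R6/1 libraries spread more widely than the WT libraries and took both the lowest value (replicate 7, 11 reads) and the highest (replicate 6, 53 reads). The WT mean was 0.823 ± 0.13 RPKM and the R6/1 mean 0.634 ± 0.23 RPKM (SD, n = 9 each). The log2 difference of -0.25 (SE 0.12) did not pass the threshold (adjusted p by limma = 0.0875), with an unadjusted 95% interval from -0.49 to -0.0029. Added constants moved its size, to -0.39 with 0.1 RPKM and -0.17 with 1 RPKM. Without R6/1 replicate 6 it passed (log2 difference -0.30, adjusted p by limma = 0.0337). WT libraries held 26 to 49 reads of it, which limits the precision. In the brain p75 is known from cholinergic neurons of the basal forebrain and from cells of vessels and meninges. WT replicates 2 and 5, which had the cholinergic markers, held 0.940 and 0.911 RPKM of Ngfr, and WT replicate 6 without them held 0.957 RPKM. Without WT replicates 2 and 5 the log2 difference of Ngfr was -0.21 (adjusted p by limma = 0.189). The part of cholinergic tissue in the Ngfr level was not tested.

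Sort1, the sortilin gene (chr3:108087009-108164429, plus strand, NCBIM37, overlapping the processed transcript Gm12523 on the opposite strand), was the most abundant of the 6. Its lowest, median and highest levels were 114, 126 and 140.1 RPKM in WT and 73.0, 79.1 and 84.0 RPKM in R6/1. All 9 R6/1 libraries lay below all 9 WT libraries. The mean fell from 126 ± 10.3 RPKM to 78.4 ± 3.9 RPKM (SD, n = 9 each), to 62.0% of WT, with a log2 difference of -0.68 (SE 0.045, adjusted p by limma = 3.55e-10). The authors' deposited table gives the same log2 fold change, -0.68, with an adjusted p of 9.71e-46. Of the tested genes, 3.18% had a lower log2 difference than Sort1, while 96.3% were at or below its mean level. The libraries were stranded, per the labels' protocols; whether the counting used strand is not given in the sources used here.

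The order of the mean levels was Sort1, Ntrk2, Ntrk3, Bdnf, Ntf3 and Ngfr in both genotypes. Neighbours in this order did not overlap between libraries of a genotype, except Bdnf and Ntf3, which overlapped in WT and in R6/1. Sort1 was 2.16 times as high as Ntrk2 in WT and 1.43 times in R6/1, and Ntrk3 was 2.86 times as high as Bdnf in WT and 5.09 times in R6/1. Ratios within a library do not depend on its depth scaling, and were described without a test. The median ratio of Bdnf to Ntrk2 was 11.2% in WT and 6.02% in R6/1. On the log2 scale the ratio went from -3.21 ± 0.24 to -4.10 ± 0.20 (SD, n = 9 each), with every R6/1 library below every WT library. The median ratio of Ntf3 to Ntrk3 was 21.7% in WT and 14.2% in R6/1 (log2 -2.19 ± 0.26 and -2.77 ± 0.20), with 8 of 9 R6/1 libraries below the WT range. The ratio of Ngfr to Ntrk2 was 1.54% in WT and 1.21% in R6/1 in the median library (log2 -6.17 ± 0.27 and -6.54 ± 0.63), and that of Sort1 to Ngfr was 7.28 ± 0.28 and 7.06 ± 0.64 on the log2 scale, both with overlapping groups. With 0.5 RPKM added to each gene, the R6/1 minus WT shift of these 2 log2 ratios went from -0.38 to -0.15 and from -0.22 to -0.44, so their size depended on this choice. In these libraries each ligand stood lower against its own Trk receptor in R6/1, without overlap for Bdnf and with 1 overlapping library for Ntf3.

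**Figure D2:**
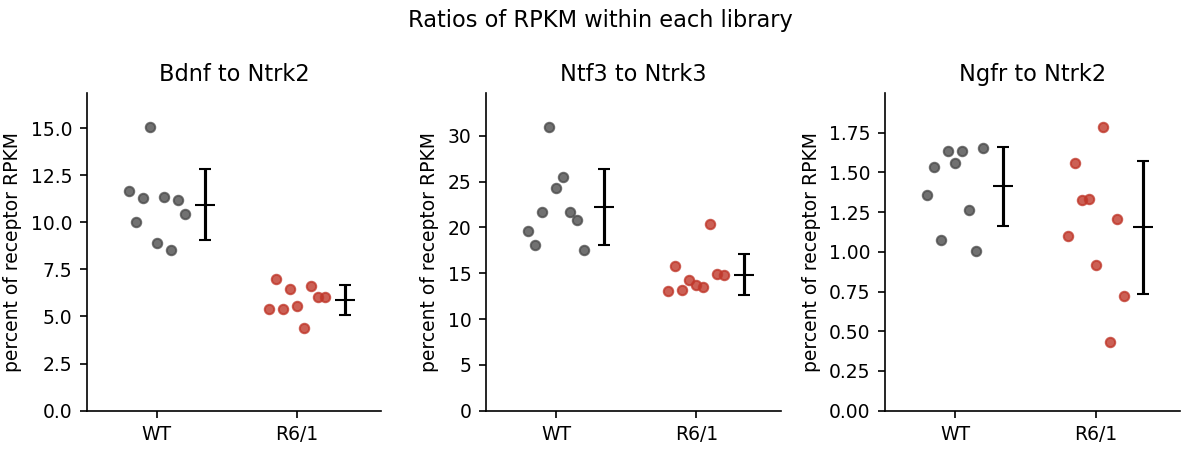
Ratio of 1 gene's RPKM to another's within each library, in percent, for Bdnf to Ntrk2, Ntf3 to Ntrk3 and Ngfr to Ntrk2; points are the 9 WT (grey) and 9 R6/1 (red) libraries, bars the mean with 1 SD, and each y axis starts at 0. For Bdnf to Ntrk2 the genotypes separate (medians 11.2% and 6.02%), for Ntf3 to Ntrk3 1 R6/1 library lies in the WT range, and for Ngfr to Ntrk2 the groups overlap.

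The relatives of sortilin were in part lower. Ntf5, the neurotrophin-4 gene (0.173 and 0.146 RPKM), was under the filter in both genotypes and was not tested. Among the relatives of sortilin, Sorcs3 fell from 9.45 ± 0.70 RPKM to 7.42 ± 0.77 RPKM (log2 difference -0.33, adjusted p by limma = 7.87e-05). Sorcs2, a partner of p75 in proneurotrophin binding, fell from 13.3 ± 0.90 RPKM to 10.8 ± 0.98 RPKM (log2 difference -0.29, adjusted p by limma = 1.16e-04). Sorl1 (38.3 and 39.9 RPKM, adjusted p by limma = 0.555) and Sorcs1 (2.08 and 2.30 RPKM, adjusted p by limma = 0.188) did not pass the threshold. Of the 4 relatives of sortilin, 2 were lower and 0 higher, beside 23.5% and 24.8% of all tested genes, and 4 genes are too few to set against those shares.

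**Figure D3:**
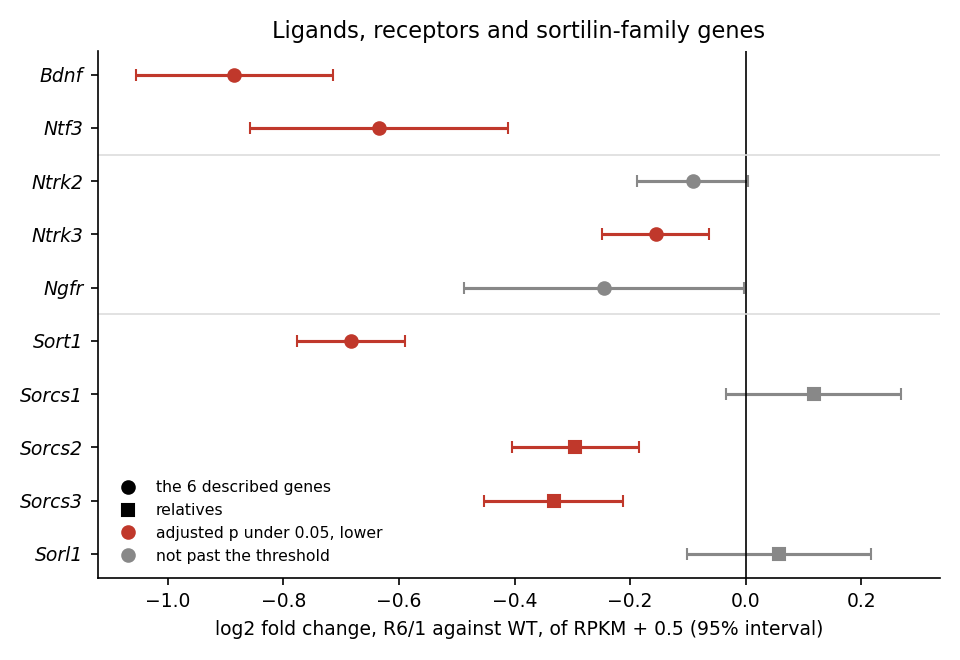
Log2 difference of R6/1 against WT with its unadjusted 95% interval (x axis) for ligands, receptors and the sortilin family (y axis), with the 6 genes as circles and their relatives as squares; red marks an adjusted p by limma under 0.05. Bdnf, Ntf3 and Sort1 lie between -0.88 and -0.63, and the Trk receptors and Ngfr between -0.25 and -0.092.

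Lists of the genes around these 6 were then described by their counts; the lists come from general knowledge and were written with earlier results of these data known. Together they hold 225 genes, of which 217 could be tested. Of these, 56 were higher and 80 lower in R6/1, with a median log2 difference of -0.035, and 36 were lower and 13 higher without overlap between genotypes. The share that was higher, 25.8%, is near the 24.8% of all tested genes, and the share that was lower, 36.9%, stands beside 23.5%. Without overlap, 5.99% were higher, near the 5.50% of all tested genes, and 16.6% were lower, beside 6.38%. Set to own read totals the split was 78 higher and 64 lower. At that scaling 5113 of all tested genes were higher and 2525 lower (17.5%). The balance of directions thus moved with the scaling in the lists and in all tested genes alike.

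Genes that cut and package proneurotrophins gave 2 higher (15.4%, beside 24.8% of all tested genes) and 5 lower (38.5%, beside 23.5%) of 13 tested. Their median log2 difference of -0.044 became 0.0046 with libraries set to own read totals. Chgb, which encodes chromogranin B of dense-core vesicles, fell from 249.9 ± 30.4 RPKM to 114 ± 5.4 RPKM (log2 difference -1.12, adjusted p by limma = 1.34e-11). Carboxypeptidase E (Cpe), a sorting receptor for proBDNF, fell from 1364 ± 167 RPKM to 1034 ± 64 RPKM (log2 difference -0.39, adjusted p by limma = 3.60e-05). The convertase genes Pcsk2 (74.4 to 55.1 RPKM, log2 difference -0.42) and Pcsk5 (1.88 to 1.27 RPKM, log2 difference -0.43) fell too. These 4 genes showed no overlap between genotypes (30.8% of the 13, beside 6.38% of all tested genes in this direction). Furin and Pcsk7, convertases of the Golgi and the constitutive route, were the 2 that were higher. Another convertase gene, Pcsk6, was lower (8.29 to 6.95 RPKM, log2 difference -0.24, adjusted p by limma = 0.00818). Pcsk1 did not pass the threshold (adjusted p by limma = 0.491). Furin, Pcsk7, Pcsk6 and Pcsk1 are named after their values were seen, and a difference between routes was not tested.

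Among genes of the Trk adaptors, which dock on the activated receptor, 12 of 24 were higher, beside 24.8% of all tested genes, and 3 lower (12.5%, beside 23.5%), with a median log2 difference of 0.13 (0.20 with libraries set to own read totals, with 15 higher and 1 lower). Gab2, a docking protein for PI3 kinase, rose from 4.38 ± 0.20 RPKM to 6.42 ± 0.41 RPKM (log2 difference 0.50, adjusted p by limma = 1.11e-08). Sqstm1, the p62 scaffold, rose from 184 ± 12.6 RPKM to 256 ± 17.3 RPKM (log2 difference 0.47, adjusted p by limma = 6.13e-08). Both showed no overlap between genotypes, as did 12.5% of the 24 in this direction, beside 5.50% of all tested genes. Irs2 was higher (10.4 to 13.9 RPKM, log2 difference 0.40), and Shc3, the neuronal Shc adaptor, was lower (24.0 to 18.5 RPKM, log2 difference -0.37, adjusted p by limma = 0.00142).

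Downstream, 3 arms carry Trk signals. The Ras-MAPK arm had 5 higher (20%, beside 24.8% of all tested genes) and 11 lower (44.0%, beside 23.5%) of 25. Its median was -0.12, and 9 were higher and 7 lower with libraries set to own read totals. Dusp6, a phosphatase that is itself induced by ERK signalling, fell from 22.8 ± 1.5 RPKM to 14.0 ± 2.1 RPKM (log2 difference -0.69, adjusted p by limma = 1.43e-07). The kinase gene Map2k1 fell (139.6 to 111 RPKM, log2 difference -0.33), and Sos1, the Ras exchange factor, rose (9.57 to 12.1 RPKM, log2 difference 0.33). The PI3K-Akt arm had 8 higher (33.3%, beside 24.8% of all tested genes) and 5 lower (20.8%, near the 23.5%) of 24. Its median was 0.014, and 12 were higher and 2 lower with libraries set to own read totals. Akt2 (17.0 to 13.8 RPKM, log2 difference -0.30) was lower, and Tsc1 (10.7 to 12.7 RPKM, log2 difference 0.24) and Pik3ca (8.82 to 10.2 RPKM, log2 difference 0.20) were higher. The arm of phospholipase C gamma and the CaM kinases had 3 higher and 14 lower (73.7%, beside 23.5% of all tested genes) of 19, with a median of -0.49, and 3 and 13 with libraries set to own read totals. Without overlap, 10 of its genes were lower (52.6%, beside 6.38%). Camk2a, the main CaM kinase of excitatory synapses, fell from 1057 ± 72 RPKM to 467 ± 32 RPKM (log2 difference -1.18, adjusted p by limma = 2.76e-13). Camkk2 (34.8 to 18.9 RPKM, log2 difference -0.86) and the channel gene Trpc6 (5.29 to 2.91 RPKM, log2 difference -0.76) fell likewise. Prkcd had the largest fold of that arm (log2 difference -1.64, adjusted p by limma = 6.00e-06), from between 8.43 and 38.9 RPKM in WT to between 3.06 and 6.45 RPKM in R6/1; 38.9 RPKM is WT replicate 6, and the next highest library held 17.9 RPKM.

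**Figure D4:**
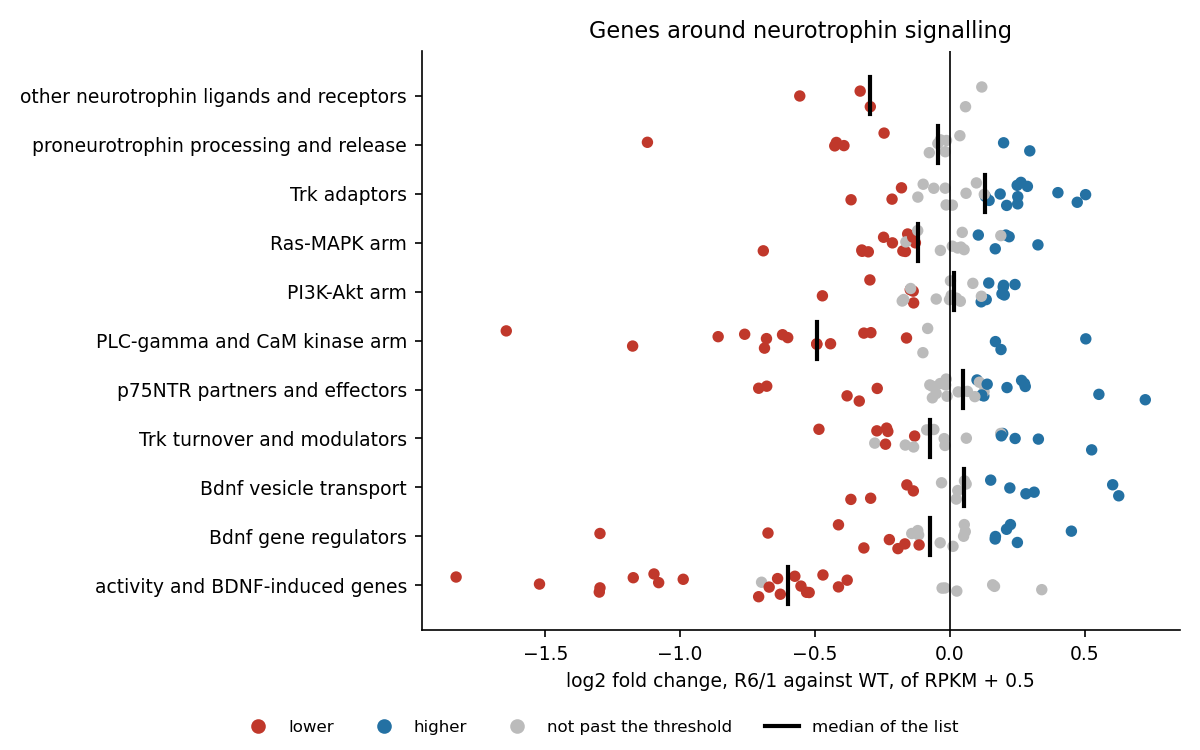
Log2 difference of R6/1 against WT (x axis) of each tested gene in the 11 lists (y axis), 1 point per gene, with genes of an adjusted p by limma under 0.05 in red (lower) or blue (higher) and the list's median as a black bar. The arm of phospholipase C gamma and CaM kinases (median -0.49) and the activity and BDNF-induced genes (median -0.60) have the lowest medians of the 11 lists, and the Trk adaptors the highest (0.13).

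On the p75 side, 10 of 28 partners and effectors were higher (35.7%, beside 24.8% of all tested genes) and 5 lower (17.9%, beside 23.5%). The median was 0.048, and 0.12 with libraries set to own read totals, with 15 higher and 5 lower. Without overlap, 4 of the 28 were lower (14.3%, beside 6.38% of all tested genes) and 1 higher (3.57%, beside 5.50%). The genes of a receptor complex that p75 joins, Lingo1 (61.5 ± 5.8 to 38.1 ± 2.7 RPKM, log2 difference -0.68, adjusted p by limma = 3.90e-09) and Rtn4r, the Nogo receptor (38.5 ± 5.2 to 23.3 ± 2.6 RPKM, log2 difference -0.71, adjusted p by limma = 2.64e-07), fell without overlap. Bex1 was higher (26.8 to 39.9 RPKM, log2 difference 0.55). Ndn, the imprinted necdin gene, was higher on average (log2 difference 0.72, adjusted p by limma = 0.00245), but its WT libraries fell apart: replicates 1, 2, 3 and 5 held between 119 and 141 RPKM and the 5 others between 55.1 and 64.9 RPKM, against 119 to 166 RPKM in R6/1. Genes that modulate or clear Trk receptors gave 5 higher and 6 lower of 20. The higher share (25%) was near the 24.8% of all tested genes, and the lower share (30%) stands beside 23.5%. Without overlap, 3 of these 20 were lower (15%, beside 6.38%) and 1 higher (5%, near the 5.50%). The median was -0.073, and 7 were higher and 5 lower with libraries set to own read totals. Ptpro, a phosphatase, rose (7.26 to 10.6 RPKM, log2 difference 0.53) and Ndfip1, a ubiquitin ligase adaptor, rose (289.9 to 364 RPKM, log2 difference 0.33), while Adora1, the adenosine A1 receptor gene, fell (51.1 to 36.3 RPKM, log2 difference -0.49) and Cdk5r1 fell (64.0 to 53.0 RPKM, log2 difference -0.27).

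Huntingtin is known to move BDNF vesicles along microtubules with Hap1 and motor proteins. Mouse Htt had 17.6 ± 1.7 RPKM in WT and 18.3 ± 1.7 RPKM in R6/1, and the difference of 0.054 on the log2 scale missed the threshold (adjusted p by limma = 0.474). Hap1 rose from 41.0 ± 6.3 RPKM to 63.6 ± 10.1 RPKM (log2 difference 0.63, adjusted p by limma = 1.84e-05) and its partner Ahi1 from 41.2 ± 2.7 RPKM to 63.0 ± 6.4 RPKM (log2 difference 0.60, adjusted p by limma = 6.10e-08). Dync1h1, the dynein heavy chain gene, rose (52.0 to 64.8 RPKM, log2 difference 0.31) and the kinesin gene Kif5c fell (181 to 140.2 RPKM, log2 difference -0.37). Of the 15 transport genes, 6 were higher (beside 24.8% of all tested genes) and 4 lower (26.7%, near the background of 23.5%; median 0.054; 9 and 2 with libraries set to own read totals).

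Of 22 tested regulators of Bdnf transcription, 6 were higher (27.3%, near the 24.8% of all tested genes) and 8 lower (36.4%, beside 23.5%), with a median of -0.075, and 6 and 6 with libraries set to own read totals. Npas4, an activity-induced factor that binds Bdnf promoters, had between 2.31 and 12.1 RPKM in WT and between 0.846 and 4.53 RPKM in R6/1 and fell by 1.30 on the log2 scale (adjusted p by limma = 0.00105). Bhlhe40 fell from 30.6 ± 4.3 RPKM to 18.9 ± 2.0 RPKM (log2 difference -0.67, adjusted p by limma = 6.75e-07). Crebbp, the CREB-binding protein gene, rose from 11.9 ± 1.1 RPKM to 16.5 ± 2.1 RPKM (log2 difference 0.45, adjusted p by limma = 3.65e-05). Egr1 had a log2 difference of -0.41 (adjusted p by limma = 0.0411), which was lost with libraries set to own read totals (adjusted p by limma = 0.0892) and in 10 of 18 fits that left out 1 library (up to 0.0838, without R6/1 replicate 6). Rest, a repressor of Bdnf (1.23 and 1.10 RPKM, adjusted p by limma = 0.229), and Ppargc1a (9.95 and 9.75 RPKM, adjusted p by limma = 0.654) did not pass the threshold.

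Genes that BDNF or neuronal activity induce were lower in 19 of 26 (73.1%, beside 23.5% of all tested genes) and higher in 0 (median -0.60), and were 17 lower and 1 higher with libraries set to own read totals. Of the 26, 7 were lower without overlap (26.9%, beside 6.38%). Arc, a synaptic immediate early gene, fell from 64.4 ± 19.7 RPKM to 22.0 ± 7.0 RPKM (log2 difference -1.52, adjusted p by limma = 3.46e-06). Ptgs2, the cyclooxygenase-2 gene, fell from 8.51 ± 2.5 RPKM to 2.01 ± 0.53 RPKM (log2 difference -1.83, adjusted p by limma = 3.06e-09). Nptx2, a secreted pentraxin at excitatory synapses, fell from 10.04 ± 1.2 RPKM to 3.83 ± 0.91 RPKM (log2 difference -1.30, adjusted p by limma = 4.29e-09). This list shares Npas4 and Egr1 with the regulators, and Sst and Npy with the inhibitory neuron markers.

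Genes whose levels varied most like each of the 6 across the 18 libraries, after the genotype means were removed, were ranked by Pearson's r among genes that averaged 1 RPKM or more. The points share tissue, dissection and depth, and r is given as a description. Sort1 had the closest matches: Plxna1 (r = 0.94), Sez6l (0.92), Arhgef17 (0.90), Epha4 (0.87) and Orai2 (0.86), each of them lower in R6/1 by limma, where 23.5% of all tested genes were. Matches of the other members went in both directions or were higher: 2 lower and 2 higher for Bdnf and for Ntf3, 1 and 3 for Ntrk2, 2 and 1 for Ntrk3, and 0 and 2 for Ngfr. Bdnf was most like Lnpk (0.81), Kcnh1 (0.79), Socs5 (0.77), Wdr70 (0.76) and Kdm1a (0.76). Ntf3 was most like Gss (0.83), Nup93 (0.77), Mbtps1 (0.76), Cstad (0.74) and Lct (0.74), and Ntrk3 like Igf1 (0.84), Alyref2 (0.82), Cluh (0.79), Ankrd28 (0.77) and AW554918 (0.76). Ntrk2 was most like Abat (0.81), Alg10b (0.80), Hipk1 (0.78), Slc7a1 (0.76) and Mid1 (0.76), and Ngfr like Slc25a13 (0.81), Selenop (0.78), Tmem117 (0.76), Hsd17b11 (0.74) and Cyp4v3 (0.74). Among the 15 pairs of the 6 genes, r was highest for Ntf3 with Ntrk3 (0.60) and Bdnf with Sort1 (0.55), and lowest for Ntf3 with Ntrk2 (-0.41).

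Positions were set against the lamin B1 domains, long stretches of chromatin at the nuclear lamina. Bdnf lay whole inside a domain in both genotypes, chr2:105783001-112036000 in WT (6.25 Mb) and chr2:106819001-112073000 in R6/1 (5.25 Mb). The WT domain reached 3.73 Mb to the left and 2.47 Mb to the right of the gene, and the R6/1 domain 2.70 Mb and 2.51 Mb. Of Ntrk3, 21.8 kb at the 3' end lay in a domain of both genotypes, and its start lay 0.364 Mb outside. The other 4 lay in no domain, between 1.28 Mb (Sort1) and 2.72 Mb (Ntf3) from the nearest in WT and between 1.63 Mb (Ntrk2) and 3.38 Mb (Ntf3) in R6/1. With 1 list per genotype, the extent of a domain has no replicate spread. Of the 12951 tested genes placed on the build by symbol, 994 (7.68%) started in a domain of both genotypes. These had a median log2 difference of -0.0016, against 0.0075 for all placed genes, and 11 of them (1.11%) had a lower value than Bdnf.

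The domain around Bdnf in WT held 12 tested gene starts, with a median log2 difference of -0.25. Of the 11 other than Bdnf, for which the domain was chosen, 7 were lower and 2 higher in R6/1. Of the 994 genes in domains of both genotypes, 24.8% were lower and 24.5% higher. The sets are unlike, since some of the 11 start outside the R6/1 domain. The R6/1 domain held 9 tested starts, Bdnf among them, of which 7 were lower and 2 higher. By WT level, Bdnf was the sixth of the 12 in the WT domain. Ano3, a member of the anoctamin family whose start lies 1.28 Mb from that of Bdnf, fell furthest (log2 difference -1.23, adjusted p by limma = 6.12e-12). The next genes on the right, Lin7c (log2 difference -0.20), Lgr4 (-0.25), Ccdc34 (-0.38) and Bbox1 (-0.39), were lower, and Fibin (0.73) was higher. On the left, the nearest tested gene, Mettl15 (0.27), was higher, and Kcna4 (-0.24) and Mpped2 (-0.27) were lower. Dnajc24 and BB218582, also on the left, did not pass the threshold. Neighbours are named because they share the domain, and were chosen after the position of Bdnf was known.

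**Figure D5:**
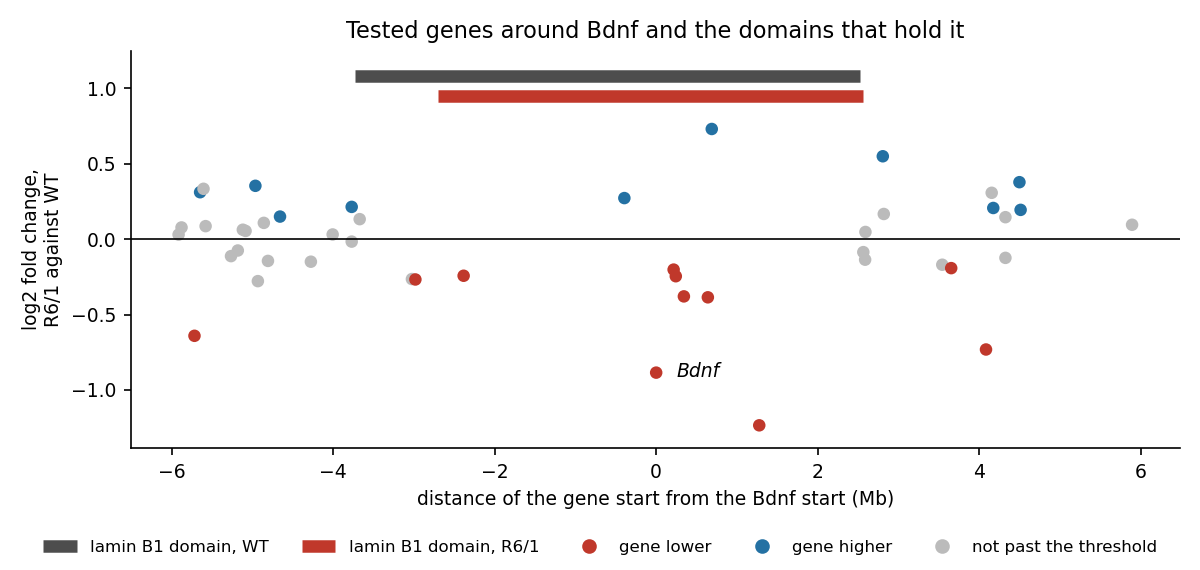
Log2 difference of R6/1 against WT (y axis) of tested genes within 6 Mb of the Bdnf start, by the distance of their start in Mb (x axis); bars at the top span the lamin B1 domain that holds Bdnf in WT (grey) and R6/1 (red), and points are red for lower, blue for higher and grey for genes past no threshold. Bdnf (-0.88) and Ano3 (-1.23) are the lowest points, and the R6/1 domain begins 2.70 Mb and the WT domain 3.73 Mb left of the Bdnf start.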

How the data were processed

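RNA-seq of 9 WT and 9 R6/1 hippocampi was analysed with the lamin B1 domain lists; ATAC-seq was not analysed here. The authors deposited RPKM for 24508 gene symbols. The submitters' processing notes name TopHat, DESeq2 and mm9 without versions; the counter and annotation are not given in the sources used here. The authors' deposited comparison holds, per the file headers, a mean normalized count (signal), a log2 fold change with its error, a test score, and p-values with adjusted ones, of which 6113 are missing. The deposited domain lists carry a score per domain, which was not used.

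Each gene's RPKM, rescaled by the ratio of its mean normalized count to its mean RPKM, gave whole multiples of 1 step per library for 99.8% to 99.9% of values under 1000 reads, within 0.05 of a read, so the depth scaling is by size factors and read totals were recovered. Reads are not counts of molecules, since no molecular identifiers are named in the labels.

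The test was limma 3.58.1 (R 4.3.3), lmFit and eBayes with trend, two-sided, on log2(RPKM + 0.5), over genes averaging 0.5 RPKM or more, and was tested on simulated data. Named genes are the 6, their 7 relatives, the 4 largest called changes per list at 1 RPKM or more on average, the 5 most similar genes per member, and Htt, Ppargc1a, Rest, Arc and Npas4; further names are marked where given, and 4 genes of this rule are not reported here. The 6 genes, the 11 pathway lists and the 13 marker lists were chosen with earlier results of these data known. mm9 is NCBIM37, and GENCODE vM1 annotation of that build gave positions. Promoters are from RefSeq. Protein sequences, which the plan included, were not used here. Alternatives covered pseudocounts, filters, scalings, voom, fits without trend or with library weights, covariates, the authors' deposited comparison, the replicate block, single libraries left out, and groups of libraries left out for their markers. No per-sample columns were unused (0).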

Additional observations from a re-analysis of the deposited data

Results flagged for a closer look

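Groups of 9 libraries were searched for a highest or lowest library that stood far from its neighbour relative to the range of the group. In 34 such groups (the 6 genes, their 7 relatives and 4 ratios, by genotype) 2 were found, where chance gives about 1 in 20 groups, or 1.7. Both come from 1 library. R6/1 replicate 7 held 3.24 RPKM of Ntf3, where the next R6/1 library held 2.60 RPKM. The log2 ratio of Ntf3 to Ntrk3 in the same library was -2.30, where the next was -2.66. R6/1 replicate 7 had 69 reads on Ntf3, the most of its genotype, and 11 on Ngfr, the fewest.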

How the results depend on the processing

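Over 17 alternatives (3 of them exclusions added after the data were seen, and 1 the authors' deposited table, which is their fit) and 18 fits that each left out 1 library, Bdnf stayed lower in R6/1 (log2 difference -0.98 to -0.80 and -0.92 to -0.85), as did Ntf3 (-0.75 to -0.55 and -0.68 to -0.56) and Sort1 (-0.71 to -0.60 and -0.70 to -0.66), past the threshold in each. Ntrk3 lost its call with libraries set to own read totals (-0.084, adjusted p by limma = 0.122) and without libraries over 500 RPKM of choroid plexus markers (-0.11, adjusted p by limma = 0.169). Ntrk2 ranged from -0.11 to -0.066 and Ngfr from -0.30 to -0.17 with 1 library left out; each passed the threshold in 1 of 18 such fits. Over the other alternatives, none of which passed, Ntrk2 ranged from -0.096 to -0.019 (the latter with own read totals, adjusted p by limma = 0.723) and Ngfr from -0.45 (voom on recovered reads) to -0.17 (1 RPKM added). Ngfr could not be tested with a minimum mean of 2 RPKM. The cause was not tested. By gene start in place of gene body, 1 of the 6 genes lay in a domain of both genotypes. By Spearman's rho, between 1 and 3 of each gene's 5 most similar genes were shared.

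Replicate numbers are shared by the genotypes in the labels without a stated link. Deviations of same-numbered libraries correlated between -0.053 and 0.24, and 2 of 9 WT libraries correlated best with their own number, so the numbers were not taken as pairs. With the replicate block, Bdnf stood at -0.88 (adjusted p by limma = 2.75e-06), and 4 of the 6 genes were lower, with no call changed.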

Other observations

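Sets of libraries stood apart within WT by measures that the labels do not name. Ndn lay between 119 and 141 RPKM in WT replicates 1, 2, 3 and 5, between 55.1 and 64.9 RPKM in the 5 other WT libraries, and between 119 and 166 RPKM in R6/1. In a fit without those 4 WT libraries, added after the data were seen, the log2 difference was -0.88 for Bdnf, -0.72 for Ntf3, -0.042 for Ntrk2, -0.19 for Ntrk3, -0.23 for Ngfr and -0.68 for Sort1, and the 4 calls held by limma. Without WT replicates 2 and 5, which had the cholinergic markers, the values were -0.93 for Bdnf, -0.66 for Ntf3, -0.17 for Ntrk3 and -0.71 for Sort1, again with 4 of 6 lower.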
